A study of Arabidopsis thaliana with 18 samples.

Results

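The phenylpropanoid pathway was followed here as a module of 35 Arabidopsis thaliana genes, listed by locus and by biochemical role, with earlier results of these data already known. It comprised 8 enzymes of the general pathway, 10 enzymes of monolignol and lignan synthesis, 5 early and 3 late flavonoid enzymes, 4 flavonoid glycosyltransferases and 5 transcription factors. Of the 35 genes, 34 had a probe set among the 21430 that were tested. The remaining one, LDOX (AT4G22880, leucoanthocyanidin dioxygenase), was not analysed here.

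The general pathway turns phenylalanine into p-coumaroyl-CoA through phenylalanine ammonia-lyase (PAL), cinnamate 4-hydroxylase (C4H) and 4-coumarate CoA ligase (4CL). From there one branch leads through shikimate esters and O-methylation to the monolignols, the building blocks of lignin in xylem walls and in the Casparian strip of the root endodermis, and to soluble sinapate esters and lignans. The other branch starts at chalcone synthase and leads to flavonols, anthocyanins and proanthocyanidins. It is controlled by R2R3-MYB factors and by complexes that join a MYB, a bHLH and a WD40 protein.

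Whole seedlings carried a fusion of a PLETHORA (PLT) transcription factor, an AP2-domain protein of the root meristem, to the glucocorticoid receptor (GR) under the constitutive 35S promoter. Dexamethasone (dex) lets such a fusion enter the nucleus. Seedlings were 4 days old when moved, about 50 per flask, to liquid medium overnight, and dex at 10 µM was then present for 6 h. The protocol states that all flasks were harvested within a short time of each other. Libraries numbered 3 for 35S-PLT1-GR, 2 for 35S-PLT3-GR, 3 for 35S-PLT4-GR, 3 for 35S-PLT5-GR and 3 for 35S-PLT7-GR, and they are called PLT1, PLT3, PLT4, PLT5 and PLT7 below. The mock group held 4 libraries of the 35S-PLT4-GR line given DMSO, the solvent. PLT4 was therefore the only line compared with its own mock. For the other 4, line and treatment changed together and cannot be told apart, and dex was never given to seedlings that lacked a fusion. The labels give neither an ecotype nor the number of independent transformants, and the 35S promoter drives each factor in nearly all cells.

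Values were the authors' normalized log2 intensities, with array medians between 5.70 and 5.80. Differences are given as a line minus mock on the log2 scale with the standard error of the limma fit, and a gene was called when its Benjamini-Hochberg adjusted p over all 21430 probe sets was under 0.05. Each induced PLT gene stood at 10.67 to 11.58 in the libraries named for it, mock included for PLT4, and no library of another label exceeded 7.51 for any of the 5. The exception was the library labelled PLT1 replicate 3. It held PLT1 at 3.50, beside 3.52 to 3.92 in libraries of the other lines, and PLT2 at 10.28, against at most 6.07 elsewhere. The submitters' protocol mentions a separate experiment with a 35S::PLT2-GR line. This library correlated at 0.967 and 0.969 with the other PLT1 libraries, whereas pairs within groups reached 0.989 to 0.997, and its 3′ minus 5′ actin signal was 2.67 against 1.08 to 1.64. It was left out of the fit, which used 17 libraries, and results that changed with all 18 are given beside the value. PLT1 and PLT3 thus rested on 2 libraries each. Weaker signals of a foreign PLT gene, unlike the rest of their group, stood in PLT5 replicate 3 (PLT2 at 6.07) and PLT7 replicate 1 (PLT3 at 6.49). Whole groups also differed in PLT4, at 7.32 and 7.51 in PLT1, 6.67 to 6.74 in PLT7, 6.31 and 6.11 in PLT3 and 4.62 to 4.85 in PLT5. The PLT5 gene read 5.65 to 7.05 in the fitted libraries of other labels.

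The pathway changed unevenly. Most general phenylpropanoid and monolignol enzymes fell in every line, whereas of the 11 flavonoid enzymes 4 fell and 1 rose in PLT1, 5 fell and 1 rose in PLT7, 1 fell in PLT3 and none was called in PLT4 or PLT5. The shares of all probe sets called in either direction were 50.8% in PLT1, 47.5% in PLT7, 31.6% in PLT3, 39.5% in PLT4 and 29.3% in PLT5. With both directions pooled, the flavonoid counts of PLT1 and PLT7 were near the background and those of the other lines below it. Taken by direction, the lower calls of PLT1 and PLT7 were above their background shares of 23% and 22.4%. Their higher calls were below the shares of 27.8% and 25.2%. In PLT1, 20 of 34 members were lower and 3 higher, beside a background of 23% of all probe sets called lower and 27.8% called higher. In PLT3 the counts were 18 lower and 0 higher (background 15.7% and 15.9%). PLT4, the line with its own mock, had 16 lower and 3 higher (background 19% and 20.5%), PLT5 16 lower and 1 higher (15.1% and 14.2%), and PLT7 20 lower and 3 higher (22.4% and 25.2%). Averaged over the 5 lines, 21 members were lower and 2 higher against backgrounds of 24.2% and 25.9%. In each line the share of members called lower was above the background share and the share called higher was below it.

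Read by branch, the median difference of the 8 general enzymes was -2.03 in PLT1, -1.24 in PLT3, -0.87 in PLT4, -1.01 in PLT5 and -1.68 in PLT7. The 10 monolignol and lignan enzymes had medians of -0.45, -0.92, -0.67, -0.70 and -0.99 in the same order. The 11 flavonoid enzymes had medians of -0.12, -0.14, 0.05, -0.09 and -0.39. Over all probe sets the median lay between -0.02 and 0.03 in the 5 lines. Lower calls in all 5 lines were made for 13 members, 6 of the 8 general enzymes and 7 of the 10 monolignol and lignan enzymes, beside 9.56% of all probe sets. No member was higher in all 5 (background 10.6%), 6 were called in no line (36.5%), and 2, PAL3 and 4CL3, were called in opposite directions in different lines (1.87%). The 5 comparisons share the mock libraries, so they are not independent of each other.

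**Figure D1:**
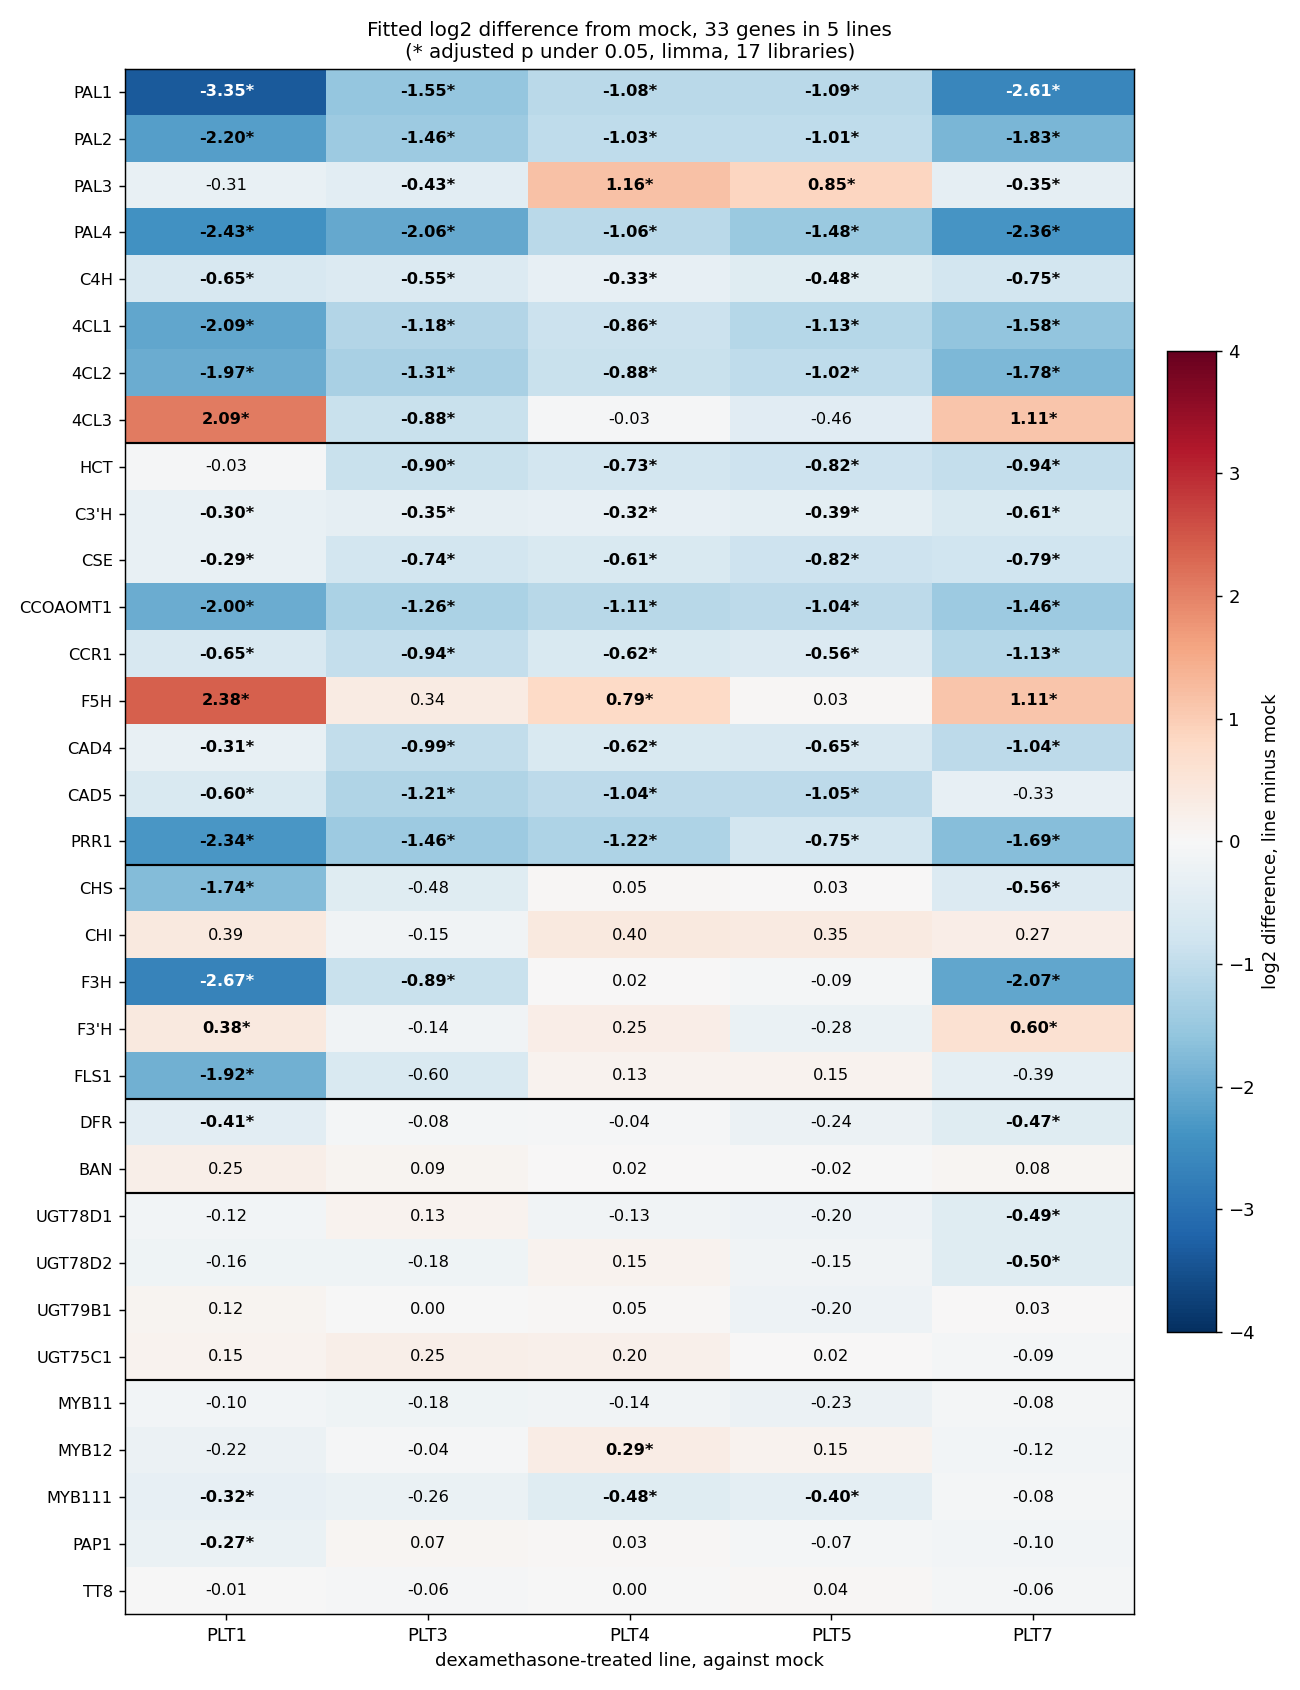
Fitted log2 difference from mock for 33 measured genes (rows, in branch order, black lines between branches) in the 5 dexamethasone-treated lines (columns), with an asterisk where the adjusted p is under 0.05. Most cells of the upper blocks are blue, with exceptions in the rows of PAL3, 4CL3 and F5H and for HCT in PLT1. The flavonoid blocks are mostly pale in PLT3, PLT4 and PLT5 apart from F3H in PLT3.

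PAL carries out the first committed step, and 3 of its 4 genes fell in every line. PAL1 (AT2G37040), one of the main PAL genes of the plant, read 9.34, 9.58, 9.56 and 9.18 in mock, 5.89 and 6.24 in PLT1, 7.99 and 7.75 in PLT3, 8.32, 8.49 and 8.18 in PLT4, 8.31, 8.39 and 8.28 in PLT5, and 6.70, 6.67 and 7.05 in PLT7. Every treated library lay below all 4 mock libraries, with PLT1 lowest and PLT7 next. The difference was -3.35 ± 0.14 in PLT1, a 10.2-fold fall (adjusted p = 1.55e-12), -2.61 ± 0.12 in PLT7, -1.55 ± 0.14 in PLT3, -1.09 ± 0.12 in PLT5 and -1.08 ± 0.12 in PLT4. The library labelled PLT1 replicate 3 stood at 7.59, above the other PLT1 libraries and below mock, and with it the PLT1 difference was -2.84.

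PAL4 (AT3G10340), a PAL gene linked to lignin in Arabidopsis, read 7.12, 6.87, 6.74 and 6.67 in mock, 4.28 and 4.56 in PLT1, 4.83 and 4.75 in PLT3, 5.89, 5.63 and 5.84 in PLT4, 5.31, 5.49 and 5.32 in PLT5, and 4.53, 4.65 and 4.30 in PLT7. No treated library reached the lowest mock library. Its differences were -2.43 ± 0.13 in PLT1, -2.36 ± 0.11 in PLT7, -2.06 ± 0.13 in PLT3, -1.48 ± 0.11 in PLT5 and -1.06 ± 0.11 in PLT4 (largest adjusted p = 7.33e-07). PAL2 (AT3G53260) read 7.82, 8.32, 8.56 and 7.94 in mock, 6.05 and 5.87 in PLT1, 6.77 and 6.64 in PLT3, 7.06, 7.40 and 6.93 in PLT4, 7.07, 7.26 and 7.12 in PLT5, and 6.36, 6.43 and 6.22 in PLT7. All its treated libraries were again below mock, and it fell, with differences of -2.20 in PLT1, -1.83 in PLT7, -1.46 in PLT3, -1.03 in PLT4 and -1.01 in PLT5, each with a standard error of 0.15 to 0.17. In the library labelled PLT1 replicate 3 PAL2 was 7.67, just below the lowest mock library.

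PAL3 (AT5G04230) went the other way in a pair of lines. It read 6.21, 6.04, 6.36 and 5.98 in mock, 5.62 and 6.06 in PLT1, 5.97 and 5.47 in PLT3, 7.33, 7.40 and 7.20 in PLT4, 7.13, 7.01 and 6.84 in PLT5, and 5.79, 5.74 and 5.88 in PLT7. The PLT4 and PLT5 libraries lay above all mock libraries, the PLT3 and PLT7 libraries lay below all of them, and PLT1 overlapped mock. It was higher by 1.16 ± 0.13 in PLT4 (2.24-fold, adjusted p = 9.51e-07) and by 0.85 ± 0.13 in PLT5 (adjusted p = 6.50e-05). The lower values of PLT3 (-0.43 ± 0.14, adjusted p = 0.0294) and PLT7 (-0.35 ± 0.13, adjusted p = 0.0315) lost their calls with 18 libraries (adjusted p = 0.0585 and 0.0561), and the former also without PLT3 replicate 2 (adjusted p = 0.516), mock replicate 1 (0.0573) or mock replicate 3 (0.0702). The PLT7 call was lost without PLT7 replicate 1 or 2, or mock replicate 1 or 3 (adjusted p = 0.0666 to 0.101), and PLT1 (-0.31 ± 0.14) was called without PLT1 replicate 2 (0.0180) or mock replicate 4 (0.0492). Between lines, PAL3 differed by -1.59 ± 0.15 for PLT3 minus PLT4 (adjusted p = 1.36e-05).

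The middle enzyme, C4H (AT2G30490), is a single-copy P450 in Arabidopsis and moved less than the PAL genes. It fell, with differences of -0.75 in PLT7, -0.65 in PLT1, -0.55 in PLT3, -0.48 in PLT5 and -0.33 in PLT4. The PLT4 value, whose libraries touched the lowest mock library (9.35 in both groups), was called at an adjusted p of 0.011 and not without PLT4 replicate 3 (adjusted p = 0.0623).

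Among the ligases, 4CL1 and 4CL2, which serve mainly lignin and related phenolics, fell in every line, and 4CL3, which serves mainly flavonoids, did not. 4CL1 (AT1G51680) fell, with differences of -2.09 in PLT1, -1.58 in PLT7, -1.18 in PLT3, -1.13 in PLT5 and -0.86 in PLT4. 4CL2 (AT3G21240) fell, with differences of -1.97, -1.78, -1.31, -1.02 and -0.88 in the same order. For both, each treated library lay below all mock libraries.

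4CL3 (AT1G65060) read 6.08, 6.20, 6.59 and 6.07 in mock, 8.75 and 7.91 in PLT1, 5.42 and 5.30 in PLT3, 6.42, 6.04 and 6.14 in PLT4, 5.62, 5.70 and 6.01 in PLT5, and 7.50, 7.38 and 7.15 in PLT7. The PLT1 and PLT7 libraries were above all mock libraries, the PLT3 and PLT5 libraries below, and PLT4 overlapped mock. It was higher by 2.09 ± 0.19 in PLT1 (4.26-fold, adjusted p = 5.84e-08) and by 1.11 ± 0.17 in PLT7 (adjusted p = 2.92e-05), and lower in PLT3, at -0.88 ± 0.19 (adjusted p = 0.00183, and 0.0677 with 18 libraries). PLT5 gave -0.46 ± 0.17 (adjusted p = 0.0517), which was called without PLT1 replicate 1 or 2 (0.0156), PLT5 replicate 3 (0.0366) or mock replicate 4 (0.0432), and PLT4 gave -0.03 ± 0.17. The mean over the lines (0.37 ± 0.13) was called at an adjusted p of 0.0243 but not with 18 libraries (adjusted p = 0.374), nor without mock replicate 1, 2 or 4 (0.0608 to 0.0890). PLT1 exceeded PLT3 by 2.97 ± 0.22 for this gene (adjusted p = 2.14e-08).

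**Figure D2:**
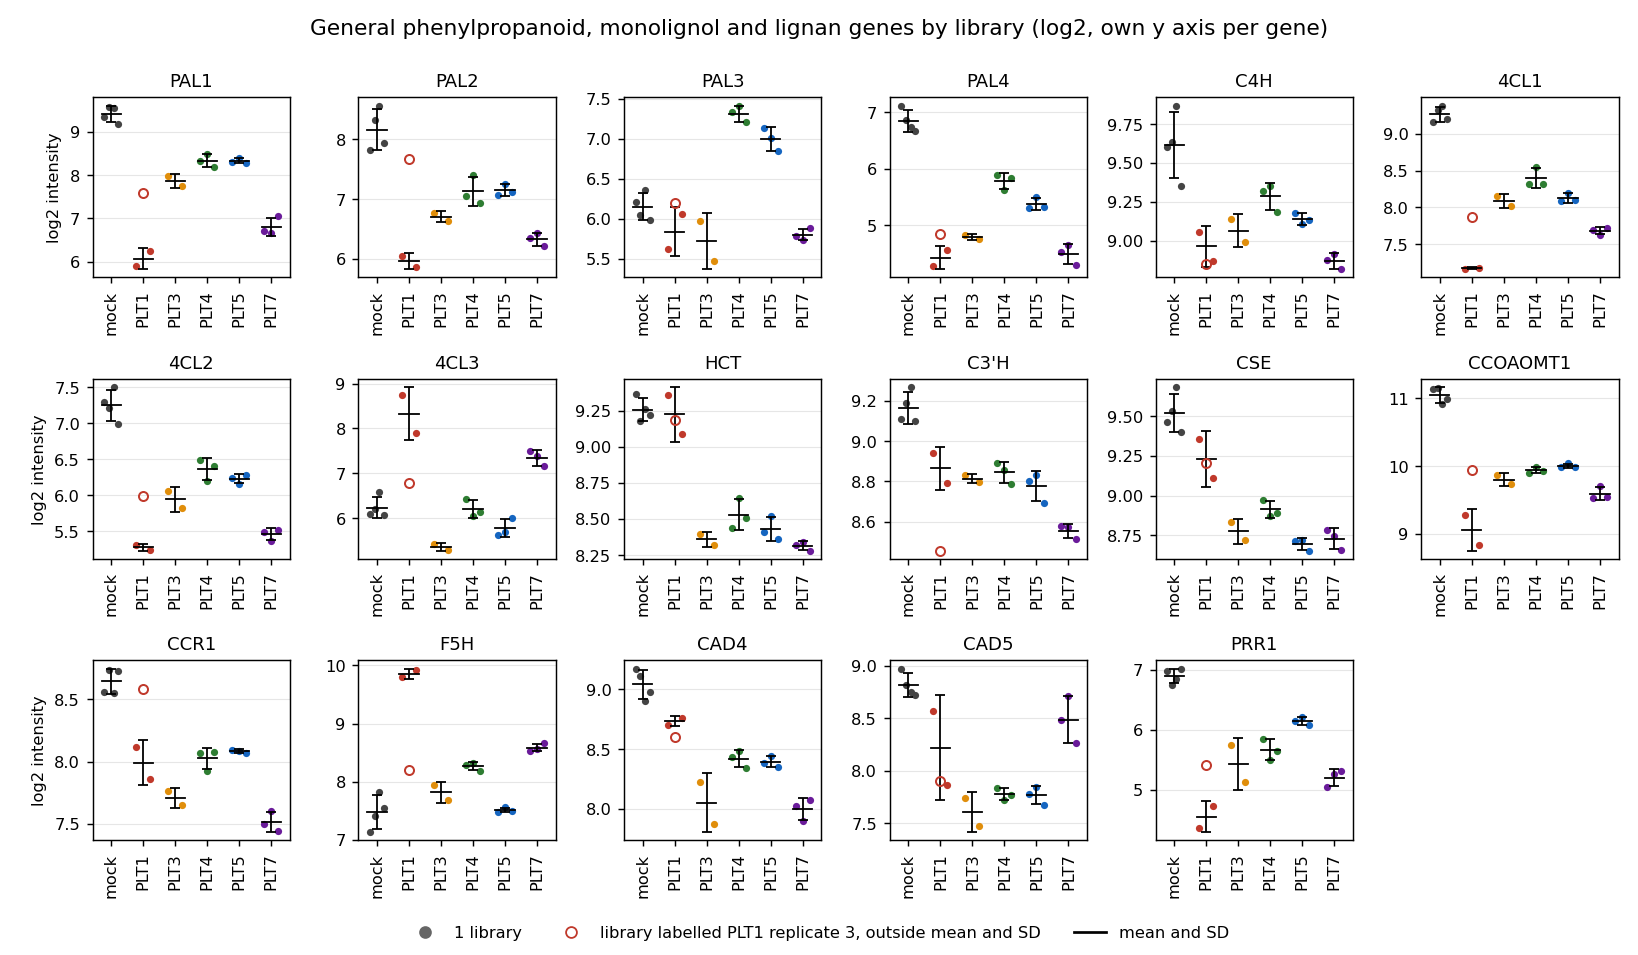
Log2 intensity (y axis, its own range for each gene) of 17 general, monolignol and lignan genes in mock and in the 5 treated lines (x axis), with 1 point per library and the mean and SD of each group. The open point is the library labelled PLT1 replicate 3, outside the mean. PAL1 falls from 9.18 to 9.58 in mock to 5.89 and 6.24 in PLT1, while F5H rises from 7.13 to 7.82 in mock to 9.80 and 9.92.

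On the monolignol branch, 9 of the 10 enzymes were lower in at least 4 lines and 1 was higher. HCT (AT5G48930), which makes the shikimate ester of p-coumarate, fell in PLT3 (-0.90), PLT4 (-0.73), PLT5 (-0.82) and PLT7 (-0.94). In PLT1 its libraries, at 9.36 and 9.09, overlapped the mock range of 9.18 to 9.36, with a difference of -0.03 ± 0.09 (95% interval -0.22 to 0.16), and PLT1 was above each of the other lines by 0.69 to 0.91 (largest adjusted p = 2.19e-05). C3'H (AT2G40890), the P450 that hydroxylates that ester, fell, with differences of -0.30 in PLT1 to -0.61 in PLT7. CSE (AT1G52760), caffeoyl shikimate esterase, fell, at -0.29 in PLT1 and -0.61 to -0.82 in the other lines. The PLT1 calls of both were lost without PLT1 replicate 2, at adjusted p = 0.0712 for C3'H and 0.248 for CSE.

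CCOAOMT1 (AT4G34050), which methylates caffeoyl-CoA, fell in every line. It read 11.15, 11.15, 10.91 and 10.99 in mock, 9.27 and 8.84 in PLT1, 9.86 and 9.73 in PLT3, 9.90, 9.99 and 9.93 in PLT4, 9.99, 10.04 and 9.99 in PLT5, and 9.53, 9.70 and 9.55 in PLT7. The 4 mock libraries stood above every treated library. CCOAOMT1 fell, with differences of -2.00 in PLT1 (3.99-fold), -1.46 in PLT7, -1.26 in PLT3, -1.11 in PLT4 and -1.04 in PLT5 (largest adjusted p = 3.70e-07).

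The reductive steps to the alcohols fell as well. CCR1 (AT1G15950), cinnamoyl-CoA reductase, fell, with differences of -0.56 in PLT5 to -1.13 in PLT7. CAD4 (AT3G19450) and CAD5 (AT4G34230) are the main cinnamyl alcohol dehydrogenases of lignin in Arabidopsis. CAD4 fell, at -0.31 in PLT1 and -0.62 to -1.04 in the others, the PLT1 call being lost without PLT1 replicate 1 (adjusted p = 0.10). CAD5 fell, at -0.60 in PLT1 and -1.04 to -1.21 in PLT3, PLT4 and PLT5. In PLT7 its libraries, at 8.48, 8.71 and 8.26, lay below the lowest mock library (8.73) with a difference of -0.33 ± 0.14 that was not called (adjusted p = 0.0519, and 0.0115 to 0.0210 without PLT1 replicate 1, PLT1 replicate 2 or PLT7 replicate 2). The PLT1 call for CAD5 was lost without PLT1 replicate 2 (adjusted p = 0.207).

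PRR1 (AT1G32100), pinoresinol reductase of lignan synthesis and not the clock gene of the same abbreviation, read 6.98, 6.74, 6.84 and 7.00 in mock, 4.37 and 4.74 in PLT1, 5.74 and 5.12 in PLT3, 5.85, 5.50 and 5.65 in PLT4, 6.15, 6.21 and 6.08 in PLT5, and 5.04, 5.26 and 5.31 in PLT7. Mock lay above every treated library, and PLT5 was nearest to it. The difference was -2.34 in PLT1 (5.05-fold, adjusted p = 4.20e-10), -1.69 in PLT7, -1.46 in PLT3, -1.22 in PLT4 and -0.75 in PLT5.

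F5H (AT4G36220, FAH1), the P450 that commits intermediates to syringyl units and sinapate esters, was the branch's 1 gene to rise. It read 7.13, 7.41, 7.82 and 7.55 in mock, 9.80 and 9.92 in PLT1, 7.94 and 7.69 in PLT3, 8.29, 8.32 and 8.19 in PLT4, 7.48, 7.55 and 7.50 in PLT5, and 8.53, 8.57 and 8.66 in PLT7. The PLT1, PLT4 and PLT7 libraries were above all mock libraries, PLT3 and PLT5 overlapped them. It rose by 2.38 ± 0.13 in PLT1 (5.22-fold, adjusted p = 6.88e-11), 1.11 ± 0.12 in PLT7 (adjusted p = 3.21e-07) and 0.79 ± 0.12 in PLT4 (adjusted p = 2.69e-05). PLT3 gave 0.34 ± 0.13, not called at an adjusted p of 0.0601 but called without mock replicate 3 (adjusted p = 0.00422), and PLT5 gave 0.03 ± 0.12. PLT1 exceeded PLT5 by 2.35 ± 0.14 (adjusted p = 5.73e-10). The library labelled PLT1 replicate 3 stood at 8.20, between mock and the other PLT1 libraries.

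Of the 5 early flavonoid enzymes, CHS, F3H and FLS1 fell in PLT1 and CHS and F3H in PLT7, while F3'H was higher in both. CHS (AT5G13930), chalcone synthase, the entry enzyme of the branch, read 9.36, 9.67, 9.95 and 9.30 in mock, 7.40 and 8.27 in PLT1, 9.20 and 8.99 in PLT3, 9.75, 9.70 and 9.40 in PLT4, 9.64, 9.62 and 9.54 in PLT5, and 9.01, 9.01 and 9.01 in PLT7. PLT1 and PLT7 lay below all mock libraries, as did PLT3, whereas PLT4 and PLT5 lay within the mock range. CHS fell, with differences of -1.74 in PLT1 (3.33-fold, adjusted p = 5.30e-07) and -0.56 in PLT7 (adjusted p = 0.0108). PLT3 gave -0.48 ± 0.19, not called at an adjusted p of 0.0693 but called without PLT1 replicate 1 or 2 (0.0189), mock replicate 1 (0.0493) or mock replicate 4 (0.0331). PLT4 gave 0.05 ± 0.17 (95% interval -0.31 to 0.40) and PLT5 0.03 ± 0.17 (95% interval -0.33 to 0.39).

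F3H (AT3G51240), flavanone 3-hydroxylase, which makes dihydroflavonols, moved furthest of the branch. It read 7.30, 7.99, 8.33 and 7.42 in mock, 4.83 and 5.34 in PLT1, 7.02 and 6.73 in PLT3, 8.01, 8.03 and 7.31 in PLT4, 7.61, 7.65 and 7.76 in PLT5, and 5.76, 5.36 and 5.96 in PLT7. PLT1 and PLT7 were far below mock, PLT3 just below its lowest library, and PLT4 and PLT5 within its range. F3H fell, with differences of -2.67 in PLT1 (6.37-fold, adjusted p = 9.33e-08), -2.07 in PLT7 (4.19-fold, adjusted p = 5.65e-07) and -0.89 in PLT3 (adjusted p = 0.0124). The PLT3 call was lost with 18 libraries (adjusted p = 0.0574) and without PLT3 replicate 2 (0.136). PLT4 gave 0.02 ± 0.23 and PLT5 -0.09 ± 0.23, and PLT1 minus PLT4 was -2.69 ± 0.27 (adjusted p = 6.00e-07).

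FLS1 (AT5G08640), the main flavonol synthase, read 7.78, 8.0, 8.25 and 7.76 in mock, 5.16 and 6.90 in PLT1, 7.44 and 7.25 in PLT3, 8.34, 8.38 and 7.51 in PLT4, 8.24, 7.88 and 8.18 in PLT5, and 7.54, 7.55 and 7.59 in PLT7. Its PLT1 libraries differed from each other by more than the mock libraries did, and both were below mock. FLS1 fell by 1.92 in PLT1 (adjusted p = 6.26e-05). The other lines gave -0.60 ± 0.32 in PLT3 (called without PLT1 replicate 1 or 2, adjusted p = 0.0265), -0.39 ± 0.28 in PLT7, 0.13 ± 0.28 in PLT4 and 0.15 ± 0.28 in PLT5, none of them called. F3'H (AT5G07990), which adds the B-ring hydroxyl of quercetin and cyanidin, read 5.62, 5.22, 5.30 and 5.11 in mock, 5.84 and 5.55 in PLT1, 5.11 and 5.24 in PLT3, 5.64, 5.76 and 5.30 in PLT4, 5.11, 4.93 and 5.06 in PLT5, and 5.86, 5.98 and 5.91 in PLT7. PLT7 stood above all mock libraries, PLT1 overlapped them, and the other lines overlapped them or lay below. F3'H was higher by 0.60 ± 0.12 in PLT7 (adjusted p = 0.00041) and by 0.38 ± 0.14 in PLT1 (adjusted p = 0.0266), the latter not called with 18 libraries (0.466), without PLT1 replicate 1 (0.301), mock replicate 2 (0.0585) or mock replicate 4 (0.0675). PLT4 (0.25 ± 0.12) was called without PLT4 replicate 3 (0.0205) or mock replicate 1 (0.0173), and PLT5 (-0.28 ± 0.12) without mock replicate 4 (0.0437).

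CHI (AT3G55120), chalcone isomerase, was called in no line, with differences of -0.15 in PLT3 and 0.27 to 0.40 in the others. Its mock libraries ran from 8.09 to 8.90, the highest being replicate 3. Without that library CHI was called higher in PLT1, PLT4, PLT5 and PLT7 (adjusted p = 0.00227 to 0.0116), and in PLT4 also without PLT4 replicate 3 (0.0138). Mock replicate 3 was the highest mock library for every early flavonoid enzyme but F3'H. The mean deviation of the 5 early flavonoid enzymes from their mock mean ran from -0.27 to 0.34 over the mock libraries. For the general enzymes it ran from -0.19 to 0.20, again highest in mock replicate 3. For the 10 monolignol and lignan enzymes it ran from -0.03 to 0.01.

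**Figure D3:**
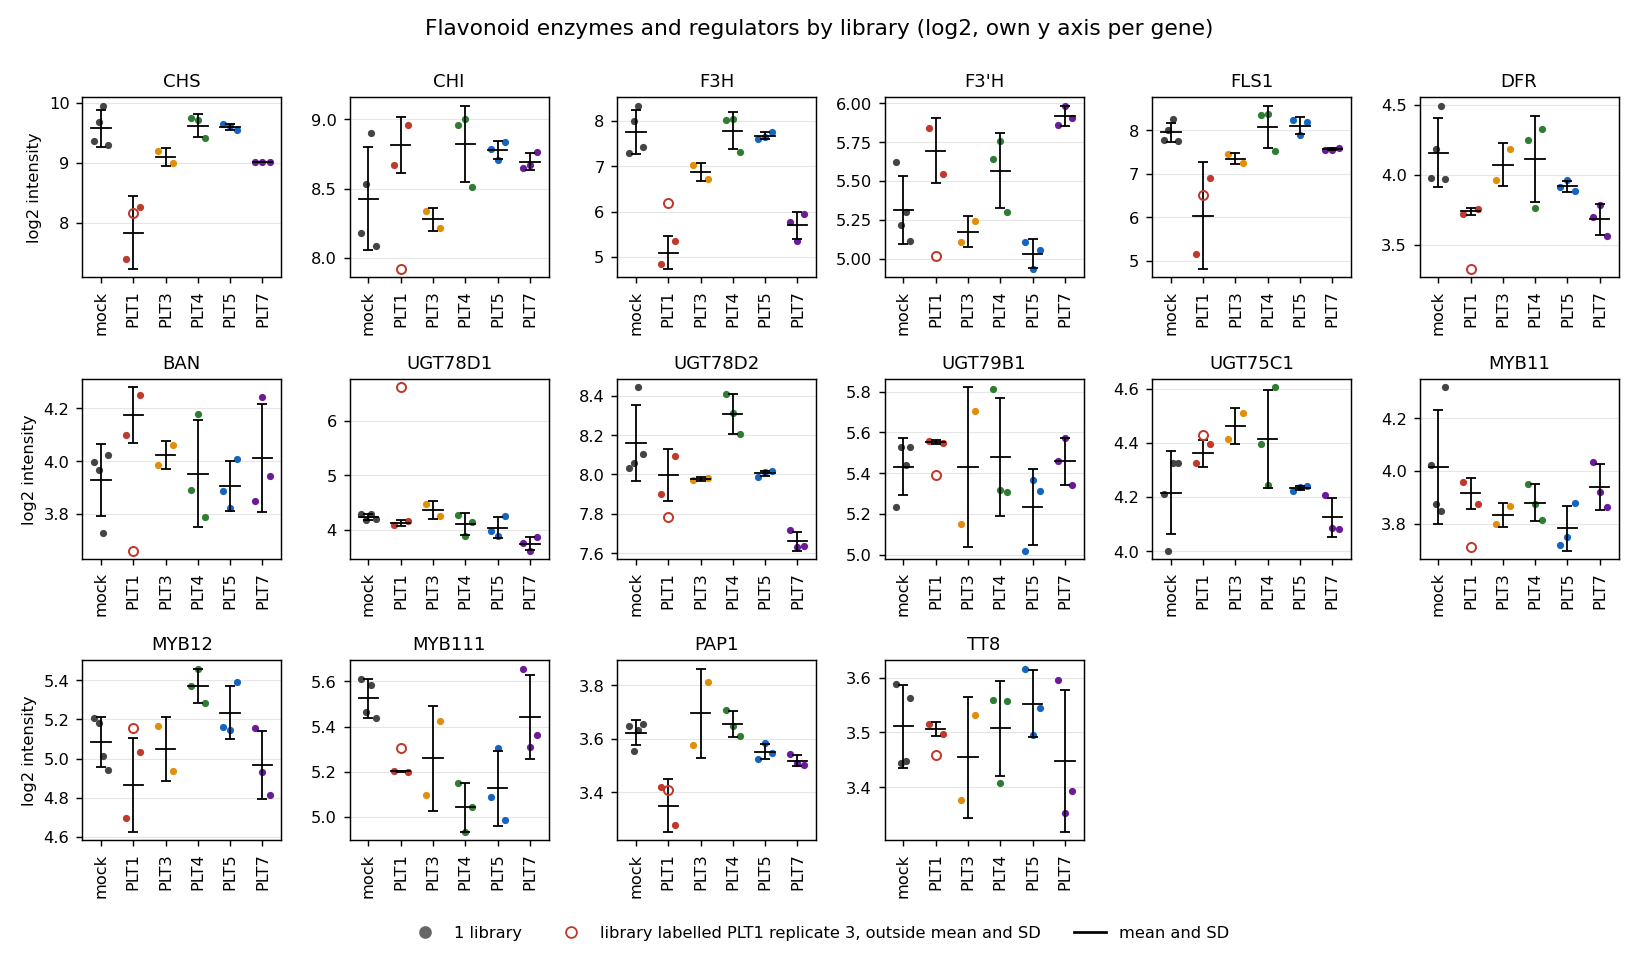
Log2 intensity (y axis, its own range for each gene) of the 11 flavonoid enzymes and 5 regulators in mock and in the 5 treated lines (x axis), with 1 point per library and the mean and SD of each group. The open point is the library labelled PLT1 replicate 3, outside the mean. F3H drops in PLT1 and PLT7 and stays within the mock range of 7.30 to 8.33 in PLT4 and PLT5, and UGT78D1 stands at 6.62 in the open point.

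Late flavonoid and sugar-transferring enzymes changed little. DFR (AT5G42800), which turns dihydroflavonols towards anthocyanins, read 3.97, 4.18, 4.49 and 3.97 in mock, 3.72 and 3.76 in PLT1, 3.96 and 4.18 in PLT3, 4.25, 3.76 and 4.33 in PLT4, 3.91, 3.96 and 3.88 in PLT5, and 3.70, 3.78 and 3.56 in PLT7. The PLT1, PLT5 and PLT7 libraries lay below all mock libraries and the rest overlapped them. DFR was lower, by a difference of -0.47 in PLT7 (adjusted p = 0.00619) and -0.41 in PLT1 (adjusted p = 0.0276), the PLT1 call being lost without PLT1 replicate 1, PLT1 replicate 2 or mock replicate 3 (0.0729 to 0.121). BAN (AT1G61720), anthocyanidin reductase of proanthocyanidin synthesis in the seed coat, was called in no line, with differences of -0.02 to 0.25.

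UGT78D2 (AT5G17050), the flavonoid 3-O-glucosyltransferase, read 8.03, 8.06, 8.44 and 8.11 in mock, 7.90 and 8.09 in PLT1, 7.97 and 7.98 in PLT3, 8.41, 8.31 and 8.21 in PLT4, 7.99, 8.01 and 8.02 in PLT5, and 7.72, 7.63 and 7.63 in PLT7. PLT7 stood below all mock libraries, as did PLT3 and PLT5 by less, while PLT1 and PLT4 overlapped mock. It fell by 0.50 in PLT7 (adjusted p = 0.00017) and was not called in the other lines, except in PLT4 (0.15 ± 0.09) without mock replicate 3 (adjusted p = 0.0143). UGT78D1 (AT1G30530), the flavonol 3-O-rhamnosyltransferase, read 4.29, 4.19, 4.28 and 4.20 in mock, 4.09 and 4.16 in PLT1, 4.48 and 4.25 in PLT3, 4.28, 3.90 and 4.15 in PLT4, 3.99, 3.89 and 4.25 in PLT5, and 3.76, 3.62 and 3.86 in PLT7. PLT7 again lay below mock, as did PLT1 by less, and the other lines overlapped it. UGT78D1 fell by 0.49 in PLT7 (adjusted p = 0.000535, and 0.367 with 18 libraries), and its PLT5 difference of -0.20 ± 0.10 was called without PLT5 replicate 3 (adjusted p = 0.0476). The anthocyanin transferases UGT79B1 (AT5G54060) and UGT75C1 (AT4G14090) were called in no line, with differences of -0.20 to 0.12 and -0.09 to 0.25, though UGT75C1 was called in PLT4 without PLT4 replicate 2 (adjusted p = 0.0292).

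The regulators were dim and moved by less than 0.5. MYB11 (AT3G62610), MYB12 (AT2G47460) and MYB111 (AT5G49330) activate early flavonoid genes, PAP1 (AT1G56650, MYB75) activates anthocyanin genes, and TT8 (AT4G09820) is a bHLH partner for anthocyanin and proanthocyanidin genes. MYB111 read 5.61, 5.46, 5.58 and 5.44 in mock, 5.20 and 5.20 in PLT1, 5.10 and 5.42 in PLT3, 5.15, 4.93 and 5.04 in PLT4, 5.09, 5.31 and 4.98 in PLT5, and 5.66, 5.31 and 5.36 in PLT7. The PLT1, PLT3, PLT4 and PLT5 libraries all lay below mock, and PLT7 overlapped it. It fell, with differences of -0.48 in PLT4 (adjusted p = 0.00104), -0.40 in PLT5 (adjusted p = 0.00693) and -0.32 in PLT1 (adjusted p = 0.0286), the last not called without PLT1 replicate 1, PLT1 replicate 2, mock replicate 1 or mock replicate 3 (0.0535 to 0.110), and in PLT3 (-0.26 ± 0.12) it was called without PLT3 replicate 2 (0.0397).

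MYB12 read 5.21, 5.18, 5.01 and 4.94 in mock, 4.69 and 5.04 in PLT1, 5.16 and 4.93 in PLT3, 5.37, 5.46 and 5.28 in PLT4, 5.16, 5.15 and 5.39 in PLT5, and 5.15, 4.93 and 4.82 in PLT7. PLT4 was above all mock libraries by a narrow margin and the other lines overlapped mock. The PLT4 difference of 0.29 ± 0.11 (adjusted p = 0.0418) was not called with 18 libraries (0.0704) nor without any one of PLT4 replicates 1 and 2, PLT7 replicate 2 and mock replicates 3 and 4 (0.0506 to 0.147), while PLT1 (-0.22 ± 0.12) was called without PLT1 replicate 2 (0.0389). PAP1 read 3.65, 3.55, 3.63 and 3.65 in mock, 3.42 and 3.28 in PLT1, 3.58 and 3.81 in PLT3, 3.71, 3.65 and 3.61 in PLT4, 3.53, 3.58 and 3.55 in PLT5, and 3.54, 3.51 and 3.50 in PLT7. Its PLT1 libraries were below mock and those of the other lines near it or overlapping. PAP1 fell by 0.27 in PLT1 (adjusted p = 0.00698, and 0.110 without PLT1 replicate 2).

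MYB11 read 4.02, 3.87, 3.85 and 4.32 in mock, 3.96 and 3.87 in PLT1, 3.80 and 3.87 in PLT3, 3.95, 3.88 and 3.81 in PLT4, 3.72, 3.75 and 3.88 in PLT5, and 4.03, 3.92 and 3.86 in PLT7. Every line had at least 1 library inside the mock range, and no line was called, though PLT5 (-0.23 ± 0.10) was without mock replicate 2 or 3 (0.0486 and 0.0346). TT8 read 3.59, 3.44, 3.45 and 3.56 in mock, 3.52 and 3.50 in PLT1, 3.38 and 3.53 in PLT3, 3.56, 3.41 and 3.56 in PLT4, 3.62, 3.50 and 3.54 in PLT5, and 3.60, 3.35 and 3.39 in PLT7. Its lines overlapped mock and none was called, with differences of -0.06 to 0.04. The table carries no detection calls, and 12 members, 11 of them flavonoid enzymes or regulators, had a mean under the median of all probe sets (5.76). The other was PAL4, whose mock libraries, at 6.67 to 7.12, lay above that median. For the 11, and for PAL4 in libraries under that median, the data do not show whether a transcript was detected.

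Lines were then compared with each other, by differences that do not involve the mock level, although the mock libraries enter the estimate of the spread. The F test among the 5 lines called 26 of 34 members, all 8 general and all 10 monolignol and lignan enzymes, 4 of 5 early flavonoid enzymes, 0 of 2 late enzymes, 2 of 4 glycosyltransferases and 2 of 5 regulators, beside 36.7% of all probe sets. With 18 libraries it called 22 (background 27.1%), and fitted on the dex libraries alone it called 29 (background 42.2%). PLT1 and PLT7 were the lowest lines for most general enzymes. PLT1 was below PLT4 for 7 of the 8 general enzymes and above it for 4CL3, and over all members it was lower for 15 and higher for 5 (24.6% of probe sets called). Against PLT5, PLT1 was lower for 13 members and higher for 7 (33.8%), and against PLT3 lower for 11 and higher for 7 (23.9%).

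PLT7 was below PLT4 for 20 members and above it for 3 (18.2%), below PLT5 for 15 and above it for 5 (23.8%), and below PLT3 for 8 and above it for 4 (16.1%). Between PLT1 and PLT7 themselves, PLT1 was lower for 6 and higher for 9 (16.2%). Of those 9, 6 were monolignol enzymes, HCT, CSE and F5H among them. PLT3, PLT4 and PLT5 differed from each other in fewer members, though in each pair the share of members called was above the background share. PLT3 was below PLT4 for 3 and above it for 0 (3.58%), the 3 being general enzymes, and below PLT5 for 3 and above it for 0 (2.07%). PLT4 was above PLT5 for 3 members and below it for 2 (7.19%).

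**Figure D4:**
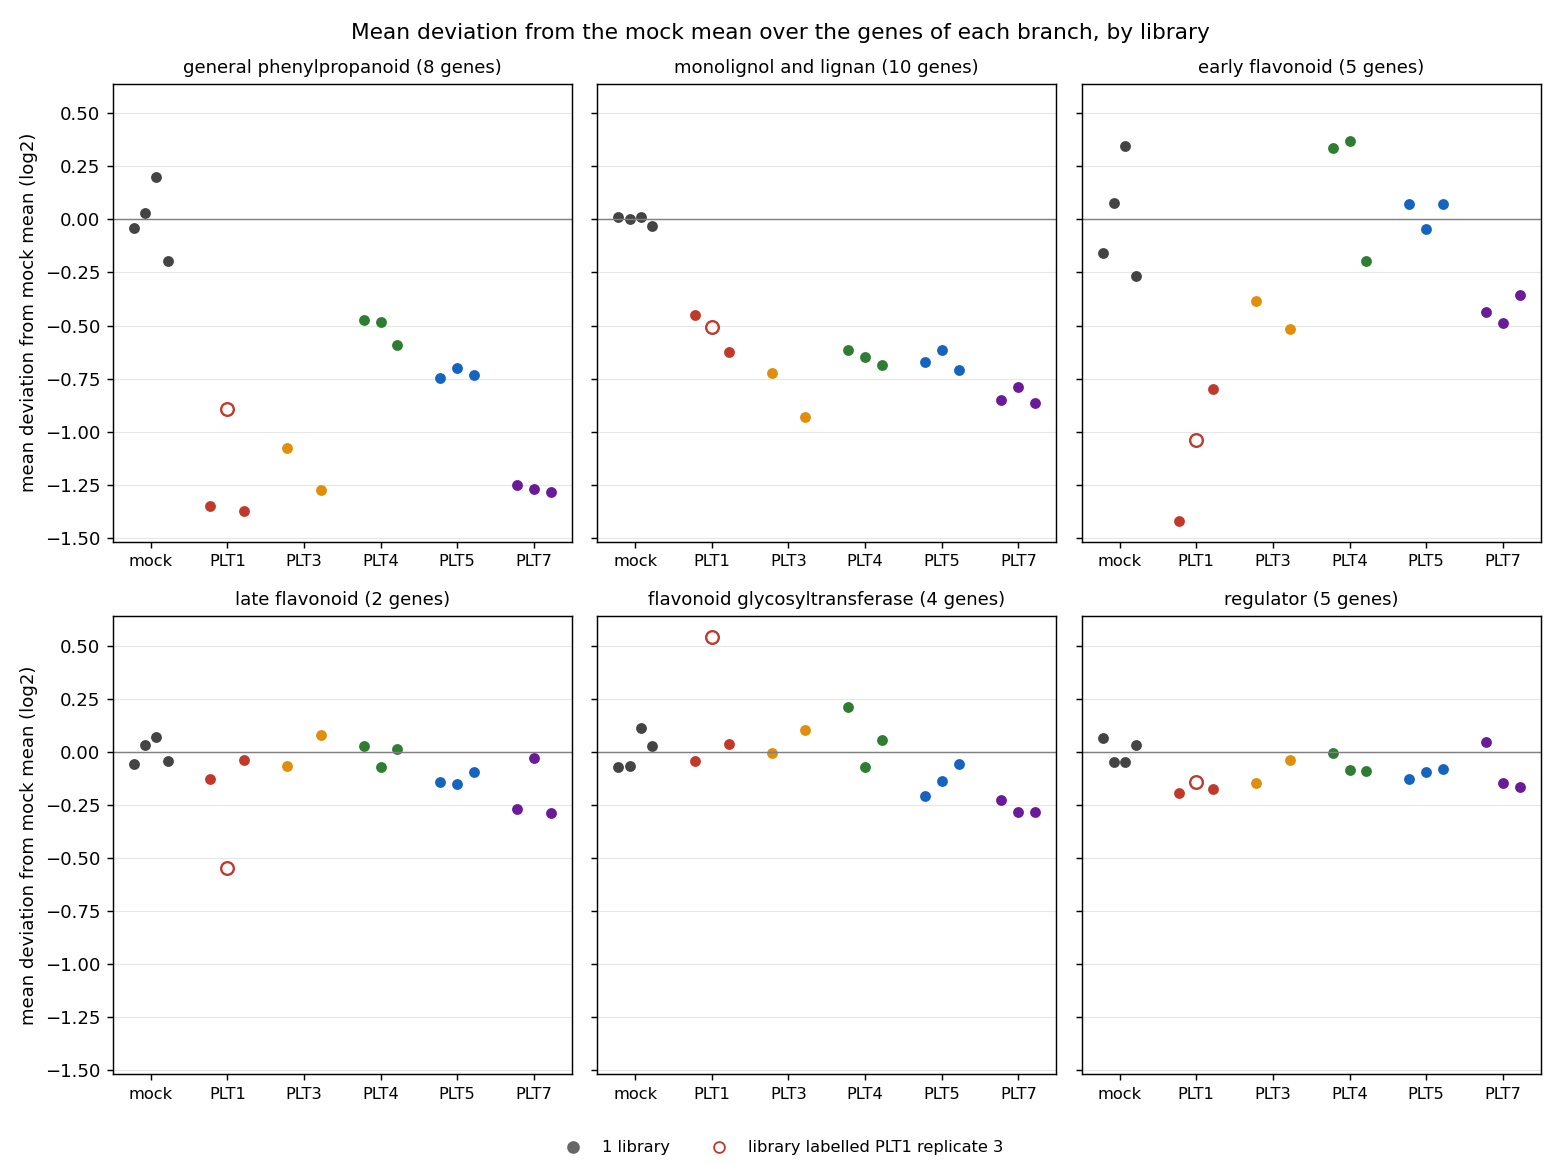
Mean deviation from the mock mean (y axis, log2) over the measured genes of each branch, with 1 point per library in mock and in the 5 treated lines (x axis). The open point is the library labelled PLT1 replicate 3. General and monolignol points of every treated library lie below all mock points, while early flavonoid points overlap mock in PLT4 and PLT5.

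Fitted on all 18 libraries, the number of members called in either direction was 22 in PLT1 (background 48.3%), 15 in PLT3 (25.6%), 18 in PLT4 (33.7%), 17 in PLT5 (22.9%), 21 in PLT7 (43.2%) and 20 in the mean of the lines (45.4%).

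Neighbouring steps of the pathway were counted from further lists. Upstream, 17 genes of the shikimate and phenylalanine route were measured, of which, averaged over the 5 lines, 8 rose and 6 fell, beside 25.9% of all probe sets higher and 24.2% lower in that average. ADT5 (AT5G22630), an arogenate dehydratase that makes phenylalanine, fell by 1.42 ± 0.09, whereas ADT2 (AT3G07630) of the same family rose by 0.74 ± 0.06 and the shikimate kinase SK2 (AT4G39540) by 0.65 ± 0.07. Of 16 further genes of lignin, sinapate and coumarin metabolism, 14 were lower and 1, REF1, was higher. PER64 (AT5G42180), a peroxidase of Casparian strip lignin, fell by 2.34 ± 0.18, DIR6 (AT4G23690), a dirigent protein of lignan coupling, fell by 2.14 ± 0.09, and SNG1 (AT2G22990), which makes sinapoylmalate, fell by 1.19 ± 0.12. The median of these 16 genes was -1.01 in PLT1, -0.42 in PLT3, -0.49 in PLT4, -0.40 in PLT5 and -0.85 in PLT7.

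Of 9 further flavonoid genes, 1 rose and 2 fell in that average, no more than the background shares of higher and lower calls. FLS3 (AT5G63590), of the flavonol synthase family, fell by 0.70 ± 0.12, called in PLT1 (-1.75), PLT7 (-1.06) and PLT4 (-0.47). TT10 (AT5G48100), a laccase that oxidises flavonoids, rose by 0.60 ± 0.15, called in PLT1 (1.93) and PLT7 (0.76) and in no other line, and CHIL (AT5G05270), a helper protein of chalcone synthase, fell by 0.27 ± 0.10, a call lost with 18 libraries. Of 10 further activators, 2 were lower, a share below the background. MYB63 (AT1G79180), an activator of lignin genes, fell by 0.46 ± 0.07, and the WD40 protein TTG1 (AT5G24520) fell by 0.15 ± 0.06. MYB63 was dim, at 3.74 to 4.14 in mock. TT10 was also dim in mock, at 3.76 to 3.88, and stood at 6.45 and 5.04 in PLT1. Of 13 repressors and F-box genes that lead to the breakdown of PAL or CHS proteins, 3 were higher and 7 lower. KFBCHS (AT1G23390), the F-box gene for CHS, fell by 1.34 ± 0.19, KFB50 (AT3G59940), an F-box gene for PAL, fell by 1.18 ± 0.11, and the R3-MYB inhibitor CPC (AT2G46410) rose by 1.11 ± 0.13.

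Most markers of the cell types that make lignin were lower as well. Their mean levels were lowest in PLT1. In that line the medians of the general enzymes and of the further lignin, sinapate and coumarin genes were also lowest. The median of the monolignol and lignan enzymes fell least there. Of 6 xylem markers, 5 were lower in PLT1, PLT3 and PLT4, 4 in PLT5 and all 6 in PLT7, where 15.1% (PLT5) to 23% (PLT1) of all probe sets were lower. Their mean level was 6.20 to 6.44 in mock, 4.97 to 5.02 in PLT1, 5.50 to 5.58 in PLT3, 5.47 to 5.81 in PLT4, 5.93 to 5.94 in PLT5 and 5.43 to 5.55 in PLT7. Of 5 endodermal markers, PER64 and CASP1 included, all were lower in PLT1 and PLT7 and 4 in each other line, with a mean level of 6.34 to 6.77 in mock, 4.15 to 4.30 in PLT1, 5.18 to 5.43 in PLT3, 4.83 to 5.43 in PLT4, 5.36 to 5.68 in PLT5 and 4.49 to 4.76 in PLT7. Of 5 root markers, which also hold CASP1, 3 were lower and 1, SCR, higher in PLT1, PLT3, PLT4 and PLT5, and 4 lower and SCR higher in PLT7. Of the 2 measured shoot markers, GAPB was lower in every line, at -0.44 to -0.58, and LHCA3, at -0.14 to -0.04, in none. VND7, a xylem fate regulator, was dim (3.34 in mock) and was called lower in PLT7 alone, and in whole seedlings fewer cells of a type and less RNA per cell cannot be told apart. Their part in the differences was not tested.

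Of 7 measured clock genes, 1 was higher and 1 lower in PLT1, 0 and 1 in PLT3, 3 and 2 in PLT4, 0 and 1 in PLT5, and 5 and 2 in PLT7. The background in either direction was 50.8% in PLT1, 31.6% in PLT3, 39.5% in PLT4, 29.3% in PLT5 and 47.5% in PLT7. The clock counts were thus above the background in PLT4 and PLT7 and below it in the other lines. CCA1, a morning gene, was lower in every line, at -1.16 to -2.56, whereas LHY, also a morning gene, was lower in PLT4 (-1.07) and PLT7 (-1.36) and gave 0.15 ± 0.41 in PLT1. The evening genes PRR5 and TOC1 were higher in PLT4 (1.51 and 0.74) and PLT7 (2.14 and 0.94), and TOC1 also in PLT1 (0.41), while GI, another evening gene, gave -0.33 ± 0.15 in PLT1, not called. Mock replicate 4 stood apart from the other mock libraries, with CCA1 at 5.88 against 7.22 to 7.62, LHY at 5.26 against 6.55 to 7.57 and PRR5 at 5.74 against 4.24 to 5.01. Without mock replicate 4, 23 members were called in PLT1, 19 in PLT3, 18 in PLT4, 19 in PLT5 and 23 in PLT7. In the same order, that fit called 10721, 6635, 8101, 6050 and 9979 of the 21430 probe sets. Leaving this library out does not test the clock. The part of the clock in the phenylpropanoid differences was not tested.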

How the data were processed

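RNA of whole seedlings was hybridised to 1-colour arrays, 18 libraries in 6 groups. The authors deposited 1 table of normalized log2 values, and the submitters' processing notes name RMA and limma 3.24.15 without role or order. An array design, a genome build and detection calls are not given in the sources used here, so no positions or sequences are printed, and how probe sets separate close gene copies such as the PAL and 4CL families is unknown. Of 21494 rows, 64 controls were left out, and 21430 were tested, 221 of them with values identical to another, none a member. A row is named by its locus, and 21231 matched a RefSeq gene table of assembly TAIR10.1, used for names only.

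Differences were computed with limma 3.58.1 in R 4.3.3 on the deposited log2 values, with 1 coefficient per group over 17 libraries. Because of its PLT1 and PLT2 signals, PLT1 replicate 3 took no part, and all 18 libraries were an alternative. Each line, and the mean of the 5, was set against mock. The lines were compared by an F test that all 5 are equal and, separately, by 10 pairwise contrasts of the same fit. For each comparison on its own, p-values were adjusted by Benjamini-Hochberg over 21430 probe sets. The script was tested on simulated data. The labels call the libraries biological replicates from separate flasks, but name 3 mock flasks for 4 mock libraries. The members and all gene lists were chosen with earlier results of these data known, so their counts are descriptions. Values in every library are given for up to 4 members of a branch, those with the largest called difference, and for every regulator, and up to 3 genes are named from each further list. One member of the monolignol branch is included in counts, medians and branch means and is not reported here by itself. EPSPS, SCPL10, GL3 and the markers RBCS1A, LHCB2.1, PRR9 and LUX were not analysed here. The alternatives were all 18 libraries, the compared groups alone, array weights, median centring, quantile normalization, a trended robust variance, dim or identical probe sets left out, 2 further libraries left out, a replicate block, a 2-fold minimum and each library left out in turn.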

Additional observations from a re-analysis of the deposited data

Results flagged for a closer look

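Of the 34 measured members, 26 differed among the 5 treated lines in the limma F test, and for 25 of these the pair of lines furthest apart is given here as the first line minus the second on the log2 scale. In the general branch, PLT1 minus PLT4 was -2.264 for PAL1, -1.368 for PAL4, -1.223 for 4CL1 and -1.087 for 4CL2, PLT1 minus PLT5 was -1.188 for PAL2, PLT3 minus PLT4 was -1.59 for PAL3, PLT4 minus PLT7 was 0.419 for C4H and PLT1 minus PLT3 was 2.97 for 4CL3. In the monolignol and lignan branch, PLT1 minus PLT7 was 0.909 for HCT, 0.308 for C3'H and 0.733 for CAD4. PLT1 minus PLT5 was 0.535 for CSE, -0.951 for CCOAOMT1, 2.349 for F5H and -1.59 for PRR1. PLT5 minus PLT7 was 0.572 for CCR1, and PLT3 minus PLT7 was -0.877 for CAD5.

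Among flavonoid enzymes, PLT1 minus PLT4 was -1.784 for CHS and -2.695 for F3H, PLT1 minus PLT5 was -2.068 for FLS1, PLT5 minus PLT7 was -0.883 for F3'H, PLT3 minus PLT7 was 0.619 for UGT78D1 and PLT4 minus PLT7 was 0.648 for UGT78D2. Of the regulators, PLT1 minus PLT4 was -0.506 for MYB12 and PLT1 minus PLT3 was -0.347 for PAP1. With 18 libraries the F test no longer called PAL2, C3'H, UGT78D1 and MYB12.

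The library labelled PLT1 replicate 3, which took no part in the fit, held UGT78D1 at 6.617. The 4 mock libraries stood at 4.19 to 4.29 and the 2 other PLT1 libraries at 4.09 and 4.16.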

How the results depend on the processing

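Under 10 settings other than leave-one-out and under leaving out each library in turn, 5402 member values were recomputed, of which 5222 kept their direction and side of the threshold, 109 lost the call, 71 gained it and 0 reversed. Leaving out each library in turn gave 19 to 23 members called in PLT1, 17 to 20 in PLT3, 18 to 20 in PLT4, 17 to 19 in PLT5, 22 to 24 in PLT7, 20 to 23 in the mean of the lines and 24 to 28 in the F test. With a minimum change of 2-fold added to the threshold, the counts fell to 13 in PLT1, 8 in PLT3, 8 in PLT4, 7 in PLT5, 13 in PLT7 and 9 in the mean, by construction since fewer genes can pass. In the mean of the lines, the calls of 4CL3, FLS1, DFR and UGT78D2 were lost under several settings. With the replicate block the counts were 22, 21, 18, 19 and 24 in PLT1, PLT3, PLT4, PLT5 and PLT7, 20 in the mean and 26 in the F test. For the lines in the same order, that fit called 10480, 6457, 8041, 5923 and 9919 of the 21430 probe sets. The labels give no pairing by replicate number. Over 36 same-numbered pairs of libraries the correlation of deviations from group means ran from -0.162 to 0.236, and 4 of 17 libraries correlated best with one of their own number. Precision is limited by 2 libraries in PLT1 and in PLT3.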
